A study of Mus musculus with 6 samples.

Results

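Trp53, which encodes the transcription factor p53, and 9 of its target genes (Mdm2, Ccng1, Phlda3, Eda2r, Bax, Bbc3, Pmaip1, Gdf15 and Zmat3) were compared between Hira cKO and control satellite cells. The 10 genes were taken by symbol from the 55536 genes counted in each sample, and Cdkn1a was not among them. All 10 passed the filter on low counts and were tested.

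RNA was sequenced from satellite cells, the stem cells that repair skeletal muscle, from C57BL/6J adult male mice aged 8 to 12 weeks. The 3 control samples were Pax7CreErt2;Hira fl/+, which the sample labels call WT, and the 3 cKO samples were Pax7CreErt2;Hira fl/fl. Both groups received tamoxifen food for 2 weeks, which activates the Cre in Pax7-expressing cells. Controls carried 1 floxed Hira allele, which was open to the same Cre. Muscle was injured with BaCl2, CD34+ ITGA7+ cells negative for CD45 (leukocytes), TER119 (erythroid cells) and SCA1 (encoded by Ly6a, on fibroblast-like and endothelial cells) were sorted 5 days post-injury, and the sorted cells were cultured for 48 h in high serum at low density before RNA extraction. The sources describe independent RNA samples without saying whether each came from its own mouse, so p-values measure only the spread between these samples, which may be technical.

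p53 is held at a low level in unstressed cells because MDM2, itself a p53 target, marks it for degradation. DNA damage and other stresses release p53 from this loop mainly by stabilising the protein, after which it binds paired half-sites near its targets and raises genes for cell cycle arrest, repair, feedback and cell death. In myoblasts it restrains proliferation under damage and can hold back differentiation. RNA levels do not report p53 protein or its modification.

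Counts summed to between 47944477 and 63323577 per sample, and the 10 genes had from 513 to 41466 counts in a sample, for which counting error alone gives a coefficient of variation of 4.42% and 0.491%. The targeted gene, Hira, had 375, 348 and 341 counts in control replicates 1, 2 and 3 and 161, 293 and 272 counts in cKO replicates 1, 2 and 3. Its log2 fold change was -0.43 with a standard error of 0.12 (edgeR adjusted p = 0.0237), and without control replicate 1 it was -0.344 (edgeR adjusted p = 0.104). Reads over the whole gene were counted, not over the floxed part alone, and a second annotated gene, Gm28539, covers 44.7% of its exonic bases on the same strand. By RT-qPCR and staining, the paper reports a sharp fall of Hira RNA and no detected HIRA protein in satellite cells of these genotypes. Summed levels of marker genes also differed between the groups. At an edgeR adjusted p under 0.05, 6.46% of all genes tested were lower in cKO and 9.38% higher. By this threshold 7 of 9 myogenic markers were lower in cKO. Their list summed to 9324 to 9438 CPM (counts scaled to a TMM-adjusted library total) in control and 8052 to 8677 CPM in cKO. Of 16 macrophage markers 16 were higher (155 to 161 CPM in control, 323 to 374 CPM in cKO), as were 6 of 9 fibroblast markers (1120 to 1197 against 1522 to 1678 CPM) and 4 of 7 endothelial markers (14.9 to 17.0 against 24.4 to 28.8 CPM). Every listed marker had counts in some sample, those of the CD45 gene (Ptprc, 1.28 to 1.55 CPM in control, 2.61 to 2.98 CPM in cKO) and the SCA1 gene (Ly6a, 2.88 to 3.18 CPM in control, 3.33 to 3.80 CPM in cKO) included, although the sort gated out cells positive for either protein before culture. The part of these shifts in the results below was not tested.

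Differences in the p53 genes were small. Of the 10 genes, 2 rose in cKO at an edgeR adjusted p under 0.05 (Mdm2 and Ccng1), against 9.38% of all 22404 genes tested. The test called 0 of the 10 lower, against 6.46% of all genes, with 2 (Eda2r and Gdf15) lower at an unadjusted p under 0.05 (12.7% of all genes, 20.1% of the well-counted genes defined next) and 0 lower by DESeq2. In either direction the share of all genes called was 15.8%, and it was 21.7% (10.3% higher, 11.4% lower) among the 10223 well-counted genes, those with at least 513 counts in every sample, the lowest count of the p53 genes. The median log2 fold change of the 10 p53 genes was 0.03, with a range from -0.21 to 0.13. Their median absolute value was 0.09, against 0.10 over all genes tested and 0.06 over the well-counted genes. Every 95% interval lay between -0.36 and 0.23, which bounds a difference in either direction at 1.28-fold. In RNA from a whole culture, a change in the mix of cells and a change of RNA per cell cannot be told apart. The paper reads its raised non-muscle genes as ectopic expression in the satellite cells, which was not tested here.

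**Figure D1:**
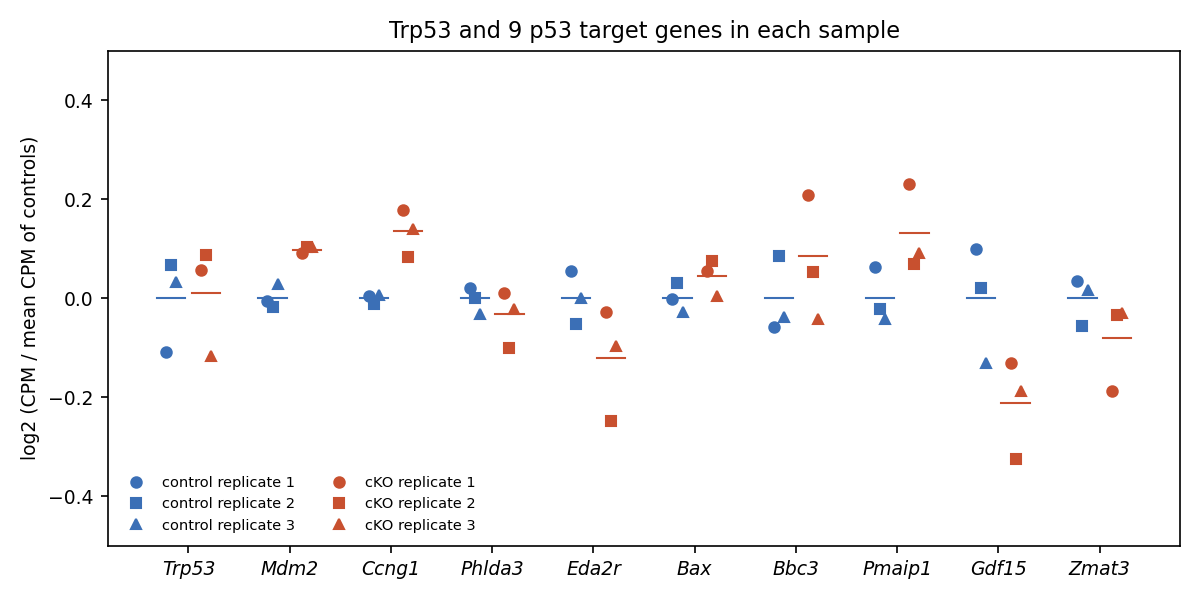
Level of Trp53 and 9 p53 target genes in each of the 6 samples, as log2 of TMM-scaled CPM over the control mean of the same gene, with horizontal lines at the group means. All points lie within 0.5 of the control mean, and the groups are apart for Mdm2, Ccng1 and Pmaip1 only among these 10 genes.

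The control and cKO values did not overlap for 3 of the 10 genes, Mdm2, Ccng1 and Pmaip1, all higher in cKO, where 16.8% of all genes tested lay wholly higher and 15.0% wholly lower, 31.8% in all. Among the well-counted genes these shares were 17.5%, 22.5% and 40.0%. Per kilobase of exon, the control levels ran from 185 ± 1.23 RPKM (SD, n = 3) for Ccng1 through 85.9 ± 1.65 for Phlda3, 52.5 ± 1.92 for Eda2r, 47.9 ± 0.799 for Mdm2 and 35.9 ± 0.746 for Bax. The remaining levels were 14.1 ± 0.539 RPKM for Pmaip1, 12.9 ± 0.827 for Trp53, 7.49 ± 0.607 for Gdf15, 4.48 ± 0.251 for Bbc3 and 3.87 ± 0.130 for Zmat3, all SD with n = 3. Ccng1 thus stood 47.9-fold above Zmat3 on this scale in control samples. No 2 neighbours in this order overlapped over the control samples. In cKO the order was the same except that Mdm2 (51.2 ± 0.269 RPKM) stood before Eda2r (48.2 ± 3.75 RPKM), and the samples of these 2 genes overlapped.

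Sequence before the start of transcription was available from RefSeq (GRCm38.p6) for 8 of the 10 genes, and it is shown for the 4 in which the 250 bases before the start held a perfect match to the p53 half-site, the palindromic 10-base consensus for which both strands read alike. Capitals mark the half-site or, where a second half-site with at most 1 mismatch lay within 13 bases of it, the pair. The stretches are chr11:69580274-69580303 (plus strand) for Trp53, chr10:117710900-117710979 (minus strand) for Mdm2, chr11:40755427-40755506 (minus strand) for Ccng1 and chr7:45467055-45467134 (minus strand) for Bax.
Trp53: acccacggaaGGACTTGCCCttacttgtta
Mdm2: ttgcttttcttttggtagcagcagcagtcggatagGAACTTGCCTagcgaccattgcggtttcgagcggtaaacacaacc
Ccng1: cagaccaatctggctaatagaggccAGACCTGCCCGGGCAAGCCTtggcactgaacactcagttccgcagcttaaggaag
Bax: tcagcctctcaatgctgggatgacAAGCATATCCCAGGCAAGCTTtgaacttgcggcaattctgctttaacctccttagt

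The perfect half-site began 75 bases before the RefSeq start in Trp53, 186 in Mdm2, 185 in Ccng1 and 201 in Bax. In GENCODE M21 the Bax stretch lies within the span of Gm45808 but outside its exons, and the Mdm2 and Ccng1 stretches overlap no annotated gene. The Trp53 stretch was cut to 10 bases on each side of the half-site, where the others have 35. Longer flanks would reach into an exon of Wrap53, so its lack of overlap holds only for the stretch as printed. Ccng1 and Bax held the paired site. Among all 27025 genes with such a sequence, 8.20% had a half-site and 1.02% a pair, and among 42 other p53 targets 10 had a half-site and 3 a pair. The windows of Phlda3, Eda2r, Bbc3 and Gdf15 had no perfect half-site, which says only that these letters are not in these 250 bases. Mdm2 and Ccng1 rose and have a half-site in the window, while Trp53 and Bax have one and were not called.

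Trp53 (ENSMUSG00000059552, chromosome 11, 69580359 to 69591873 of mm10, plus strand) measured 48.5, 54.8 and 53.5 CPM in control replicates 1, 2 and 3 and 54.4, 55.6 and 48.2 CPM in cKO replicates 1, 2 and 3. The lowest control and the lowest cKO sample lay side by side, and the groups overlapped over nearly their whole range. The log2 fold change was 0.01 with a 95% interval from -0.11 to 0.13 (edgeR adjusted p = 0.932), so a change of Trp53 RNA was not detectable and one beyond 1.09-fold lay outside the interval. Bowtie2 does not split reads over introns, so reads across exon junctions of Trp53 can be placed on its processed pseudogene Trp53-ps (chromosome 17, 54419680 to 54420841). Trp53-ps had 936, 1099 and 986 counts in control and 887, 984 and 928 counts in cKO, between 29.5% and 34.4% of the Trp53 count of the same sample. With the counts of both added, the log2 fold change was 0.015 (edgeR adjusted p = 0.891). The log2 CPM profiles nearest to that of Trp53 over the 6 samples were those of Proser3, Dact1 and Toe1, with root mean square differences of 0.019, 0.024 and 0.027 against a median of 0.111 over 14614 genes.

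The feedback genes contain both calls. Mdm2 (ENSMUSG00000020184, chromosome 10, 117688875 to 117710758), the ubiquitin ligase that targets p53 for degradation, measured 242, 240 and 248 CPM in control and 259, 261 and 261 CPM in cKO. All 3 cKO samples lay above all 3 control samples, and the cKO samples were closer to each other (SD 1.37 CPM) than the controls (SD 4.06 CPM). The log2 fold change was 0.10 with a standard error of 0.03 and a 95% interval from 0.03 to 0.16, a level 6.90% higher (edgeR adjusted p = 0.0341). This call was lost when control replicate 1, 2 or 3 or cKO replicate 2 or 3 was left out, with edgeR adjusted p between 0.0604 and 0.178 and log2 fold changes from 0.086 to 0.109.

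Ccng1 (ENSMUSG00000020326, chromosome 11, 40748552 to 40755311) encodes cyclin G1, which recruits a phosphatase to MDM2 and so favours p53 turnover. It measured 653, 646 and 654 CPM in control and 737, 690 and 717 CPM in cKO. Every cKO sample exceeded the highest control, and the controls lay close together (SD 4.31 CPM against 23.2 CPM in cKO). The log2 fold change was 0.13 with a standard error of 0.03 and a 95% interval from 0.07 to 0.20, a level 9.81% higher (edgeR adjusted p = 0.00723). Without control replicate 2 the log2 fold change was 0.128 (edgeR adjusted p = 0.0557). The profiles nearest to that of Ccng1 were those of the processed pseudogene Gm5915, of Amotl1 and of Smad6, with root mean square differences in log2 CPM of 0.011, 0.013 and 0.013 over the 6 samples and a median of 0.103 over 14614 genes.

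Phlda3 (ENSMUSG00000041801, chromosome 1, 135766119 to 135769136), which competes with AKT for membrane lipid and so dampens survival signalling, measured 136, 134 and 131 CPM in control and 135, 125 and 132 CPM in cKO. The groups overlapped, with cKO replicate 2 the lowest of the 6. Its log2 fold change was -0.04, with a 95% interval from -0.11 to 0.04 (edgeR adjusted p = 0.564).

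The genes of the cell death machinery did not pass the threshold. Eda2r (ENSMUSG00000034457, chromosome X, 97333840 to 97377216) encodes a receptor of the TNF receptor family for the ectodysplasin EDA-A2. It measured 321, 298 and 309 CPM in control and 303, 260 and 289 CPM in cKO, and cKO replicate 1 lay among the controls. For Eda2r the log2 fold change was -0.12 with a 95% interval from -0.22 to -0.02 (edgeR adjusted p = 0.0931), and -0.173 without cKO replicate 1 (edgeR adjusted p = 0.00489).

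Bax (ENSMUSG00000003873, chromosome 7, 45461697 to 45466898), the effector that permeabilises the outer mitochondrial membrane, measured 56.5, 57.8 and 55.5 CPM in control and 58.8, 59.6 and 56.8 CPM in cKO. The groups overlapped, and the log2 fold change was 0.05 with a 95% interval from -0.03 to 0.12 (edgeR adjusted p = 0.458). Exons of Gm45808 on the same strand cover 12.2% of the exonic bases of Bax, whose counts are uncertain by a share that was not measured. Bbc3 (ENSMUSG00000002083, chromosome 7, 16308393 to 16318205) encodes PUMA, a BH3-only protein that binds all the anti-apoptotic family members. It measured 9.15, 10.1 and 9.27 CPM in control and 11.0, 9.87 and 9.25 CPM in cKO, where replicate 1 was the highest and replicate 3 lay beside the lowest controls. Its log2 fold change was 0.07 with a 95% interval from -0.08 to 0.23 (edgeR adjusted p = 0.579).

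Pmaip1 (ENSMUSG00000024521, chromosome 18) encodes NOXA, a BH3-only protein that binds MCL1. It measured 40.3, 38.0 and 37.5 CPM in control and 45.3, 40.5 and 41.1 CPM in cKO, so that all cKO samples lay above all controls, cKO replicate 2 only just. The log2 fold change was 0.13 with a standard error of 0.05 and a 95% interval from 0.03 to 0.23 (edgeR adjusted p = 0.0724). Scaling by total counts gave 0.156 (edgeR adjusted p = 0.0325), and leaving out cKO replicate 2 gave 0.157 (edgeR adjusted p = 0.0338).

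Gdf15 (ENSMUSG00000038508, chromosome 8, 70629393 to 70632456) encodes a secreted stress cytokine of the TGF-beta superfamily. It measured 14.9, 14.1 and 12.7 CPM in control and 12.7, 11.1 and 12.2 CPM in cKO, and the groups met where control replicate 3 and cKO replicate 1 lay together. Its log2 fold change was the furthest from 0 of the 10 genes, -0.21 with a standard error of 0.07 and a 95% interval from -0.36 to -0.06 (edgeR adjusted p = 0.0524). Leaving out control replicate 3 gave -0.274 (edgeR adjusted p = 0.0251) and leaving out cKO replicate 1 gave -0.253 (edgeR adjusted p = 0.0186). Gdf15 is also induced by ATF4 and CHOP, the transcription factors of the integrated stress response. Of 6 genes of that arm, 0 were called by edgeR, against 15.8% of all genes tested, a share too low for 6 genes to tell apart from 0. At an unadjusted p under 0.05 there were 0, and 0 by DESeq2. The log2 fold changes of these 6 genes ran from -0.06 to 0.08. Atf4 itself measured 442, 447 and 447 CPM in control and 447, 436 and 442 CPM in cKO. The log2 fold changes of Atf4, of Asns, the asparagine synthetase, and of the stress factor Atf3 were -0.01, -0.04 and -0.01.

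Zmat3 (ENSMUSG00000027663, chromosome 3, 32334792 to 32366014) encodes a zinc finger protein that binds RNA and alters splicing. It measured 45.4, 42.6 and 44.8 CPM in control and 38.9, 43.3 and 43.4 CPM in cKO. Of the cKO samples, replicate 1 lay below all controls. For Zmat3 the log2 fold change was -0.08 with a 95% interval from -0.18 to 0.02 (edgeR adjusted p = 0.303).

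**Figure D2:**
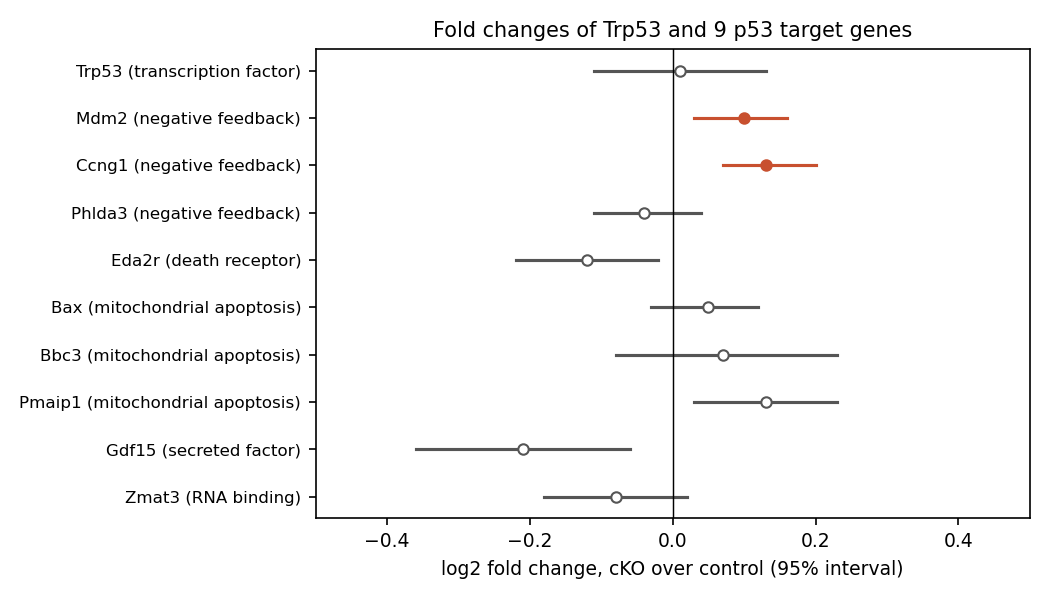
Log2 fold change of cKO over control for Trp53 and 9 p53 target genes, each with its 95% interval and its role, from edgeR. Filled red points mark an adjusted p under 0.05 (Mdm2 at 0.10 and Ccng1 at 0.13), open points the other genes, and all intervals lie between -0.36 and 0.23.

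A wider list of 52 p53 targets, of which 51 were tested, also moved little as a list, with a median log2 fold change of 0.03 and a median absolute value of 0.07. It held 9 genes that rose (17.6%) and 2 that fell (3.92%). Read against the 9.38% and 6.46% of all genes, or the 10.3% and 11.4% of well-counted genes, these shares are descriptions of the list, not a test of it. The same holds for the counts by role that follow. Among 7 genes of cell cycle arrest, Plk3, a stress-activated polo-like kinase, rose from 12.1, 11.9 and 12.1 CPM in control to 16.9, 17.8 and 15.5 CPM in cKO (log2 fold change 0.48, edgeR adjusted p = 3.53e-05). Tob1, an antiproliferative protein that promotes deadenylation of mRNA, fell from 112, 93.7 and 92.8 CPM to 59.3, 74.2 and 80.6 CPM (log2 fold change -0.48, edgeR adjusted p = 0.00136). The kinase Plk2 and the damage-inducible Gadd45a, both abundant genes of this role, had log2 fold changes of 0.10 and 0.01 and were not called. Plk2 measured 191, 191 and 187 CPM in control and 212, 190 and 208 CPM in cKO, where replicate 2 lay among the controls, and without that sample its log2 fold change was 0.143 (edgeR adjusted p = 0.00377).

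Metabolic and autophagy targets went both ways. Of 10 tested, Cpt1c, a neuronal member of the carnitine palmitoyltransferase family (log2 fold change 0.48), Gpx1, a glutathione peroxidase (0.16), and Sesn2 (0.15) rose, while Sesn1 fell (-0.21). Sestrins restrain mTORC1 signalling. Sesn1 measured 23.4, 24.3 and 24.4 CPM in control and 20.6, 20.2 and 21.5 CPM in cKO (edgeR adjusted p = 0.00382). Sesn2 measured 25.9, 27.4 and 27.3 CPM in control and 31.3, 29.3 and 28.8 CPM in cKO (edgeR adjusted p = 0.0349), a call that leaving out control replicate 1, 2 or 3 or cKO replicate 1 ended, with edgeR adjusted p from 0.0760 to 0.155. It was also lost by DESeq2 (adjusted p = 0.0899).

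In the other roles, 1 of 12 apoptosis genes rose, Shisa5, an endoplasmic reticulum protein (log2 fold change 0.30), and 1 of 6 repair genes, Polk, a translesion DNA polymerase (0.29). Of 3 further targets in negative feedback, 0 were called, against 15.8% of all genes. The log2 fold changes of these 3 were all negative, from -0.07 to -0.02. Of 13 targets with other functions, Lif, a cytokine of the IL-6 family (0.49), the phosphatase Ptp4a3 (0.41) and the extracellular sulfatase Sulf2 (0.30) rose. Lif measured 4.82, 4.71 and 4.80 CPM in control and 6.27, 6.66 and 7.11 CPM in cKO (edgeR adjusted p = 0.000333), with the groups well apart. The adenylate kinase Ak1, the most abundant of this list in CPM, had a log2 fold change of -0.02 and was not called. The macrophage, fibroblast and endothelial marker sums were higher in the same samples, although CD45-positive and SCA1-positive cells were gated out at the sort, and their part in these results was not tested.

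**Figure D3:**
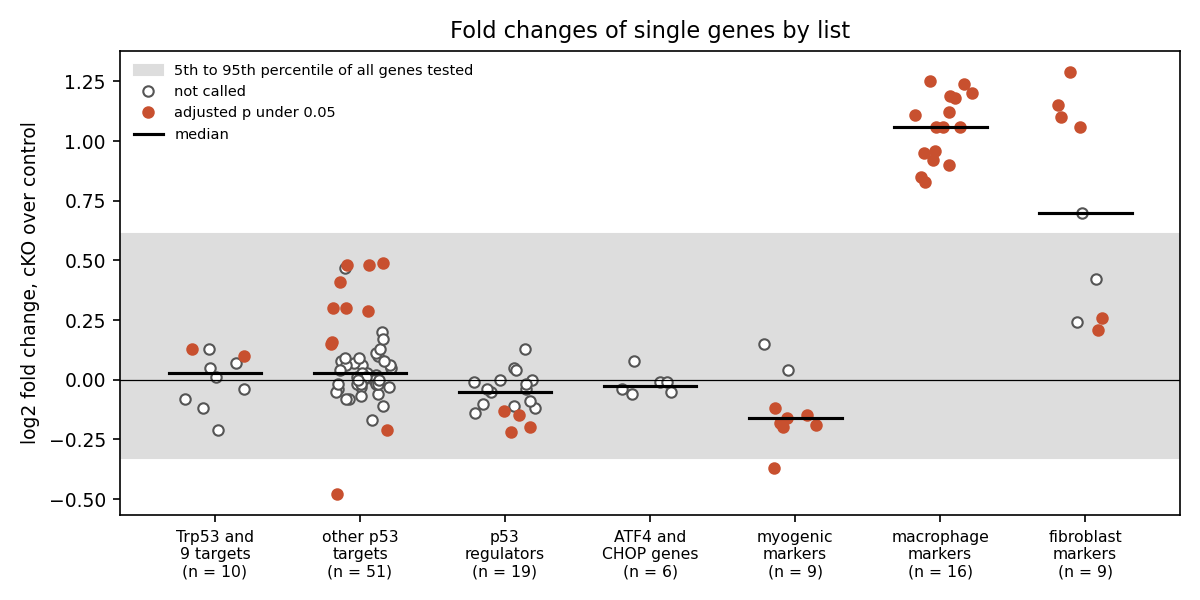
Log2 fold change of cKO over control for each tested gene of 7 lists, with filled red points for an adjusted p under 0.05, open points for other genes, black lines at list medians, and a grey band from the 5th to the 95th percentile of all genes tested (-0.33 to 0.61). Trp53 and its 9 targets lie within -0.21 and 0.13 around a median of 0.03, while the 16 macrophage markers lie between 0.83 and 1.25.

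Of 19 regulators of p53, 4 fell in cKO (21.1%, against 6.46% of all genes and 11.4% of well-counted genes). The test called 0 of them higher, against 9.38% of all genes and 10.3% of well-counted genes. At an unadjusted p under 0.05, 0 were higher, against 3331 of all 22404 genes tested, and 0 were higher by DESeq2. These shares are descriptions of the list, not a test of it. Ep300, an acetyltransferase and coactivator of p53, measured 58.5, 55.3 and 54.7 CPM in control and 47.3, 49.3 and 48.4 CPM in cKO (log2 fold change -0.22, edgeR adjusted p = 0.000938). Hipk2, a kinase that phosphorylates p53 for its apoptotic function, measured 51.4, 46.6 and 45.6 CPM in control and 40.8, 42.0 and 41.7 CPM in cKO (log2 fold change -0.20, edgeR adjusted p = 0.00510). For both genes the groups were apart. The deacetylase Sirt1, which inhibits p53, had a log2 fold change of -0.15 (edgeR adjusted p = 0.0183), and the damage-response scaffold Trp53bp1 one of -0.13 (edgeR adjusted p = 0.0151). Both calls were lost when control replicate 2 or 3 was left out, with edgeR adjusted p from 0.0600 to 0.0944, which brought the count from 4 to 2.

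The regulators closest to MDM2 were not called. Mdm4, its partner in holding p53 inactive, measured 81.1, 80.6 and 81.6 CPM in control and 77.3, 82.4 and 81.6 CPM in cKO, with a log2 fold change of -0.01 and a 95% interval from -0.08 to 0.06. It was chosen after its values were seen. Usp7, the deubiquitinase of MDM2 and p53, had a log2 fold change of -0.04, and the ribosomal proteins Rpl5 and Rpl11, which bind MDM2, had 0.04 and 0.00. Of the p53 family, Trp63 had 209, 231 and 210 counts in control and 182, 259 and 249 counts in cKO, which after scaling were all higher in cKO (3.45 to 3.73 against 3.78 to 4.45 CPM, log2 fold change 0.21, edgeR adjusted p = 0.143). Trp73 had at most 5 counts in a sample and was not tested.

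The p53 targets Bax, Bbc3 and Pmaip1 act within the Bcl-2 family, and 15 further genes of this family were examined. Of the 14 tested, 8 rose (57.1%, against 9.38% of all genes), and 7 rose by DESeq2. By edgeR 0 were called lower, against 6.46% of all genes. At an unadjusted p under 0.05, 0 were lower, against 12.7% of all genes, and 0 were lower by DESeq2. These shares describe the list and are not a test of it. All 7 anti-apoptotic genes were among those that rose, the near-identical Bcl2a1 copies of the next paragraph included. Those copies share sequence, so their calls are not separate observations. Bcl2l1, which encodes BCL-XL, measured 50.0, 52.1 and 54.2 CPM in control and 66.3, 64.0 and 60.0 CPM in cKO (log2 fold change 0.28, edgeR adjusted p = 0.000265). Mcl1 measured 188, 184 and 186 CPM in control and 213, 201 and 209 CPM in cKO (log2 fold change 0.16, edgeR adjusted p = 0.00243). In both genes the groups were apart. The log2 fold change was 0.37 for Bcl2 (edgeR adjusted p = 0.00469) and 0.15 for Bcl2l2 (edgeR adjusted p = 0.00937), whose call was lost without control replicate 2 or 3 (edgeR adjusted p = 0.0576 and 0.0649).

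The remaining 3 anti-apoptotic genes, Bcl2a1a, Bcl2a1b and Bcl2a1d, are near-identical copies that are expressed mostly in leukocytes. They had between 8 and 55 counts in a sample and log2 fold changes of 1.74, 1.06 and 1.30. From 55.2% to 68.4% of their 75-base windows occur in another gene, mostly another copy, so the values of single copies are uncertain. Bcl2a1b overlapped between the groups, and its call was lost by DESeq2 and on leaving out any sample other than cKO replicate 3 (edgeR adjusted p from 0.0656 to 0.219). The summed macrophage markers moved in the same direction over the same samples (155 to 161 CPM in control, 323 to 374 CPM in cKO) although the sort gated out CD45-positive cells, and their part in this result was not tested.

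Among the pro-apoptotic members, the BH3-only gene Bcl2l11 (BIM) rose, from 11.0, 10.9 and 9.82 CPM in control to 12.8, 12.3 and 12.6 CPM in cKO (log2 fold change 0.25, edgeR adjusted p = 0.0102). Without control replicate 3 it was 0.195 (edgeR adjusted p = 0.0650). The effectors beside Bax, Bak1 and Bok, had log2 fold changes of 0.10 and -0.02, and Bid, which is also on the wider p53 target list, had one of -0.00. None of these 3 genes passed the threshold. On the opposite strand, Ggnbp1 covers 25.5% of the exonic bases of Bak1, Bcl2l13 17.7% of those of Bid and D630008O14Rik 6.09% of those of Bcl2. The strand setting of the counting is not given in the sources used here. On the same strand, Gm20521 covers 13.3% of the exonic bases of Bcl2l2 and Gm29094 49.1% of those of Bcl2a1b. The counts of these genes are uncertain, by shares that were not measured.

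**Figure D4:**
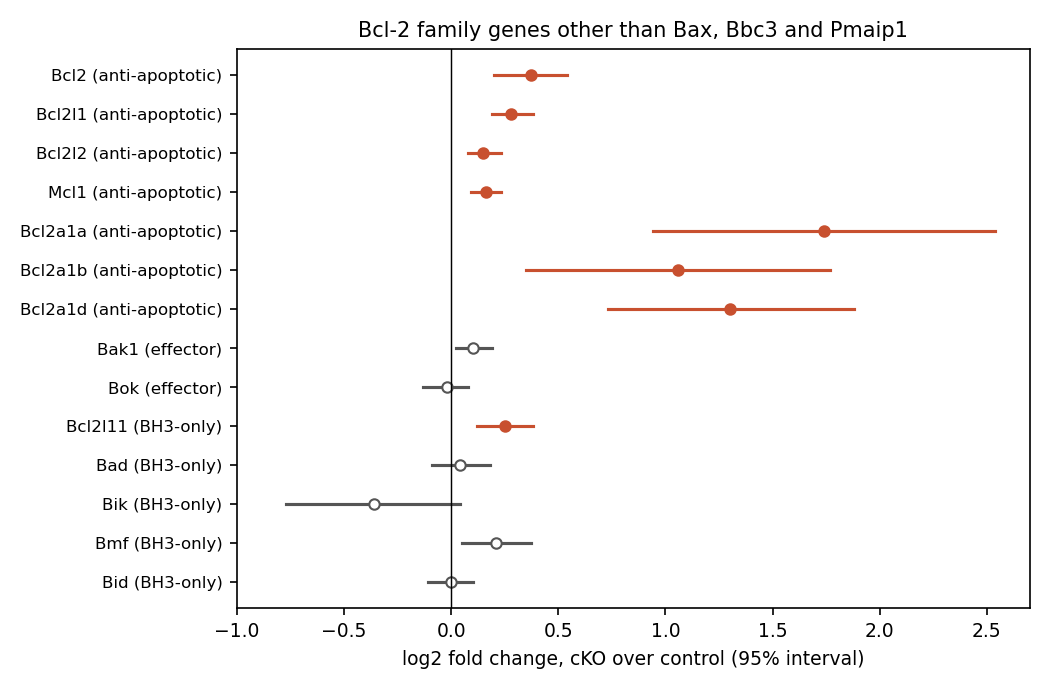
Log2 fold change of cKO over control for 14 Bcl-2 family genes other than Bax, Bbc3 and Pmaip1, each with its 95% interval from edgeR and its role, filled red for an adjusted p under 0.05. The 7 anti-apoptotic genes lie between 0.15 and 1.74, with wide intervals for the 3 low-count Bcl2a1 copies, and Bcl2l11 at 0.25 is the called gene among the other 7.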

How the data were processed

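RNA-seq was performed on 3 control and 3 cKO samples. The authors aligned single-end 75 bp reads to mm10 with Bowtie2 2.3.4.2 and deposited raw counts per gene made with featureCounts 1.6.3. The strand setting and the treatment of reads matching several genes are not given in the sources used here. A table of normalized counts and one of the authors' comparison (mean, log2 fold change of control over cKO, standard error, Wald statistic, p-value and adjusted p-value, from DESeq2 2.11.40.6) were not used.

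Genes passing filterByExpr (22404 of 55536) were TMM-scaled and tested with the quasi-likelihood test of edgeR 4.0.16 in R 4.3.3, with genotype as the only term, a Benjamini-Hochberg adjusted p under 0.05 over all genes tested, and 95% intervals from the moderated t distribution. Replicates varied with a common biological coefficient of variation of 3.92%. No pair of replicates was the same library within sampling noise. The scripts were tested on simulated data in which 200 genes were changed by larger folds than those of the p53 genes. That test does not cover differences as small as those of the p53 genes. Symbols, coordinates and exon lengths came from GENCODE M21, promoter sequences from RefSeq, and RPKM is TMM-scaled CPM per kilobase of exon. Python 3.11.15 with scipy 1.17.1 was used for summaries.

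The p53 genes and all lists were chosen with earlier results of these data known. Named were the 10 genes, Hira, and from each list every called gene up to 8 per direction plus up to 3 most abundant genes not called. Sesn2 was added to complete a count of 9, and Mdm4 after its values were seen. For Trp53 and Ccng1 the 3 nearest profiles were taken among genes with at least 100 counts in every sample. Alternatives were DESeq2 1.42.0, a likelihood-ratio test, other scalings and filters, a replicate block, a threshold of 0.01, leaving out each sample and, chosen after seeing the data, adding Trp53-ps to Trp53.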

Additional observations from a re-analysis of the deposited data

How the results depend on the processing

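The number of p53 genes called higher (2) was 0 to 2 when each sample was left out in turn, 3 with total-count scaling (Pmaip1 added) and 1 at an adjusted p under 0.01. It was 0 without control replicate 2, where Mdm2 and Ccng1 both missed the threshold. The number called lower (0) was 0 to 2 over the omissions, 1 with the likelihood-ratio test, 1 with RLE scaling (both Gdf15) and 2 without the filter on low counts (Eda2r and Gdf15). Without that filter Mdm2 had an adjusted p of 0.0524 and Pmaip1 one of 0.0420 by edgeR. No shared effect of the replicate numbers was seen: deviations from the group means correlated at -0.0129, -0.00449 and -0.0145 within numbers, and 0 of 6 samples correlated best with its own number. These values cannot show whether the samples were prepared in pairs. With the replicate block, 1 of the p53 genes was called lower (Eda2r, adjusted p = 0.0279), Pmaip1 was called (adjusted p = 0.0437) and Mdm2 was not (adjusted p = 0.0620), nor were Sesn2 (adjusted p = 0.0664) and Bcl2a1b (adjusted p = 0.0576), all by edgeR. The median log2 fold change of the 10 genes ran from -0.003 to 0.066 over the omissions, with a spread between replicates of 0.035. Regulators called lower (4) were 2 to 5 over the omissions and 2 at an adjusted p under 0.01, and all genes called lower (1448) were 917 to 1673 and 732, with the fewest without control replicate 1 (917), 2 (934) or 3 (960). The counts of wider targets called stayed within 1.5 times under every alternative. Total-count scaling moved the median of all genes to 0.023 and gave 2462 genes higher and 1057 lower.

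Genes near 0 changed sign and were not called. Trp53 ran from -0.041 to 0.070 over the omissions, Ak1 from -0.038 to 0.010, Gadd45a from -0.046 to 0.031, Rpl11 from -0.024 to 0.024, Bok from -0.065 to 0.023, Bid from -0.035 to 0.019 and Atf3 from -0.074 to 0.047. Total-count scaling gave 0.009 for Ak1, 0.000 for Bok, 0.020 for Bid, 0.011 for Atf4 and 0.011 for Atf3. DESeq2 gave -0.000 for Gadd45a and -0.001 for Rpl11, which was -0.000 without the filter. The causes were not tested. Of 611 refits over 47 named genes, 544 kept direction and side of the threshold, 29 lost a call, 15 gained one and 23 changed sign. Sesn2 lost its call with DESeq2 (adjusted p = 0.0899), and Bcl2a1b with DESeq2 (adjusted p = 0.0729) and on leaving out any sample but cKO replicate 3. Counting error of 4.42% limits Bbc3, the lowest of the p53 genes.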
